A study of Mus musculus with 9 samples.

Results

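The p53 target genes examined here are a set of 10 named genes, the tumour suppressor gene Trp53 and 9 genes that its protein activates. They were found by symbol among the 34944 probe sets that the platform annotation assigns to a single gene, and 8 of the 10 had such a probe set, with 18 probe sets between them, out of 18193 genes in all. These were Cdkn1a, Mdm2, Ccng1, Bbc3, Aen, Zmat3, Trp53inp1 and Sesn2. Trp53 and Bax had no single-gene probe set under their symbols and are not analysed here, so the level of the p53 transcript itself is not part of what follows. The brightest probe set of all 8 genes had a mean of at least 5 on the log2 scale.

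RNA came from SCCVII, a line of mouse cells from an oral squamous cell carcinoma that arose without induction, and was hybridised to Affymetrix arrays, 9 in all. The parental line (PA, 3 arrays) was kept in standard culture. NIR (3 arrays) came from tumours grown from PA cells injected into stroma that had not been irradiated, and IR (3 arrays) from tumours grown in stroma that was irradiated before the injection. It was thus the host stroma, and not the injected cells, that the labels describe as irradiated. All groups share the SCCVII background. Whether a group's arrays stand for different tumours or for repeat dishes of a line is not in the labels, and the spread behind the p-values may therefore be technical.

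p53 is a transcription factor that is held at a low level by the ubiquitin ligase MDM2 and accumulates after DNA damage and other stress. It binds a paired decamer element in the DNA near its target genes, which carry out cell cycle arrest, DNA repair, apoptosis and metabolic control. Mdm2 is itself a target, which closes a negative feedback loop.

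A near-complete form of this element lay in the promoter of Ccng1 and in that of the first annotated Cdkn1a start. A weaker match lay in promoters of Bbc3 and Aen. RefSeq promoter windows on GRCm38.p6, from 250 bases before to 50 bases after an annotated start, were given for 8 of the 10 named genes. The p53 response element consensus, 2 adjacent decamers with no spacer, was searched in them. The consensus reads the same on both strands, so a search of either strand covers both. The best match in each of 4 genes is shown in capitals with 5 flanking bases on each side in lower case, because Cdkn1a and Ccng1 hold the closest matches among the members and Aen is a gene that differed between groups.

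Cdkn1a: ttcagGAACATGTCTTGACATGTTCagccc

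Ccng1: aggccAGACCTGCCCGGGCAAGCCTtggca

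Bbc3: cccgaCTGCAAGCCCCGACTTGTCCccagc

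Aen: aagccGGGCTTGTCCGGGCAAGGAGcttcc

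The Cdkn1a stretch lies at chr17:29090923-29090952 on the plus strand, with the element 51 bases before the first annotated start, and the element matches the consensus at 19 of 20 positions. The Ccng1 stretch lies at chr11:40755457-40755486 on the minus strand, 195 bases before the start, and also matches at 19 of 20. Of all 32851 promoter windows of this length, 29 (0.0883%) held an element with at most 1 mismatch. The window of the later Cdkn1a start held no match above 15 of 20. The Bbc3 stretch (chr7:16309481-16309510, plus strand, 97 bases before a start) matches at 17 of 20, the best of its windows, while its other windows reached 15 and 14. The Aen stretch (chr7:78895932-78895961, plus strand) also matches at 17 of 20. Its element begins 121 bases before the later of its annotated starts and 10 bases after the earlier one. Of all windows 6.29% held a match of at least 17 of 20, a share per window and not for the best of several. The windows of Bax and Trp53, whose expression is not analysed here, also held a match at 17 of 20, each with 1 decamer that fits the consensus in full. Mdm2 and Sesn2 held no match above 15 of 20 in their windows, a level reached by 76.6% of all windows. The Mdm2 window, like those of Ccng1 and Aen, also held 1 decamer that fits in full, and the Sesn2 window held 0. At least 1 such decamer lay in 8.36% of all windows. A match describes these letters only, and elements outside the windows were not searched.

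Cdkn1a and Mdm2, the arrest gene and the feedback gene of the pathway, passed in no comparison. Cdkn1a encodes p21, the inhibitor of cyclin-dependent kinases through which p53 halts the cell cycle. On the log2 scale its brightest probe set (Entrez Gene 12575) read 9.41, 9.41 and 9.31 in IR1, IR2 and IR3, 9.39, 9.44 and 9.20 in NIR1, NIR2 and NIR3, and 9.41, 9.52 and 9.58 in PA1, PA2 and PA3. The groups overlapped in every pairing. The log2 difference was 0.036 for IR minus NIR (95% interval -0.14 to 0.22, limma adjusted p = 0.891), -0.12 for IR minus PA (-0.30 to 0.058, limma adjusted p = 0.767) and -0.16 for NIR minus PA (-0.34 to 0.022, limma adjusted p = 0.490). The dimmer Cdkn1a probe set gave 0.12, -0.039 and -0.15 for the same comparisons.

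Mdm2 (Entrez Gene 17246) read 8.54, 8.58 and 8.72 in IR, 8.64, 8.70 and 8.53 in NIR and 8.64, 8.64 and 8.70 in PA, with the arrays of every group interleaved. Its log2 differences were -0.015 for IR minus NIR (95% interval -0.18 to 0.15), -0.052 for IR minus PA (-0.22 to 0.11) and -0.037 for NIR minus PA (-0.20 to 0.13), with limma adjusted p from 0.899 to 0.957. On its second probe set IR overlapped NIR and lay below all PA arrays (-0.21, limma adjusted p = 0.629 over all probe sets). The dim Mdm2 probe set had a mean of 3.70, below the median of 4.49 over all probe sets, and carries little signal.

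**Figure D1:**
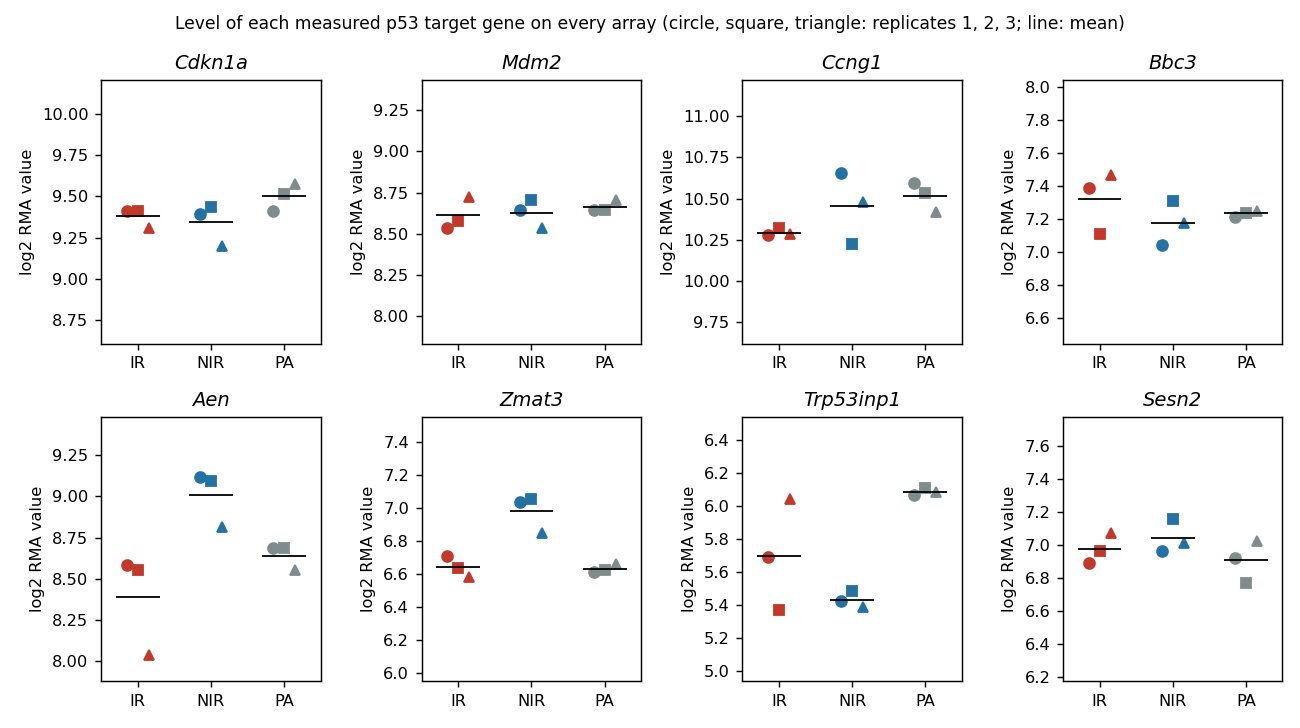
Log2 RMA value (vertical axis, each panel spanning a range of the same width) of the brightest probe set of each measured p53 target gene on every array, with circles, squares and triangles for replicates 1, 2 and 3 and a line at the group mean. Aen and Zmat3 stand higher in all NIR arrays than in any IR or PA array, Trp53inp1 stands higher in all PA arrays than in any other, and Cdkn1a, Mdm2, Bbc3 and Sesn2 overlap between all groups.

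Ccng1 encodes cyclin G1, which recruits a phosphatase to MDM2 and is a long-known p53 target. Its brightest probe set (Entrez Gene 12450) read 10.28, 10.32 and 10.28 in IR, 10.66, 10.23 and 10.48 in NIR and 10.59, 10.53 and 10.42 in PA. All IR arrays lay below all PA arrays, while NIR2 lay below the IR arrays. The log2 difference was -0.22 for IR minus PA (SE 0.100, limma adjusted p = 0.573) and -0.16 for IR minus NIR (limma adjusted p = 0.490). The other Ccng1 probe sets pointed the same way in IR, with -0.39 and -0.29 against PA and -0.32 and -0.36 against NIR, and in both of these IR did not overlap either group. Neither passed over all probe sets (limma adjusted p from 0.195 to 0.589). NIR1 was the highest array of its group on all 3 Ccng1 probe sets, and the SD within NIR, 0.22 to 0.37, exceeded that within IR, 0.023 to 0.085.

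The targets that act in cell death did not move together. Bbc3, which encodes the BH3-only protein PUMA that unleashes mitochondrial apoptosis, read 7.39, 7.11 and 7.47 in IR, 7.04, 7.31 and 7.17 in NIR and 7.21, 7.23 and 7.25 in PA (Entrez Gene 170770). The groups overlapped, and its differences of 0.15 for IR minus NIR, 0.089 for IR minus PA and -0.057 for NIR minus PA did not pass (limma adjusted p from 0.530 to 0.891). Aen, which encodes a nuclease that enhances apoptosis, was higher in NIR. It read 8.58, 8.55 and 8.04 in IR, 9.12, 9.09 and 8.82 in NIR and 8.68, 8.68 and 8.55 in PA (Entrez Gene 68048). Every NIR array lay above every IR and PA array. Aen was 1.53-fold lower in IR than in NIR (log2 difference -0.62, SE 0.14, 95% interval -0.91 to -0.32, limma adjusted p = 0.0486). It did not pass for NIR minus PA (0.37, limma adjusted p = 0.294) or IR minus PA (-0.25, limma adjusted p = 0.681), where the difference was -0.072 without IR3.

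Zmat3 encodes a zinc finger protein that binds RNA and is induced by p53. It read 6.70, 6.64 and 6.58 in IR, 7.03, 7.06 and 6.84 in NIR and 6.61, 6.62 and 6.66 in PA (Entrez Gene 22401). IR and PA interleaved, and all NIR arrays lay above both. Zmat3 was 1.26-fold lower in IR than in NIR (log2 difference -0.34, SE 0.075, 95% interval -0.50 to -0.17, limma adjusted p = 0.0498). NIR minus PA gave a difference of like size, 0.35 (95% interval 0.18 to 0.51), which just missed the threshold (limma adjusted p = 0.0514), while IR minus PA gave 0.0083 (95% interval -0.16 to 0.17, limma adjusted p = 0.991).

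**Figure D2:**
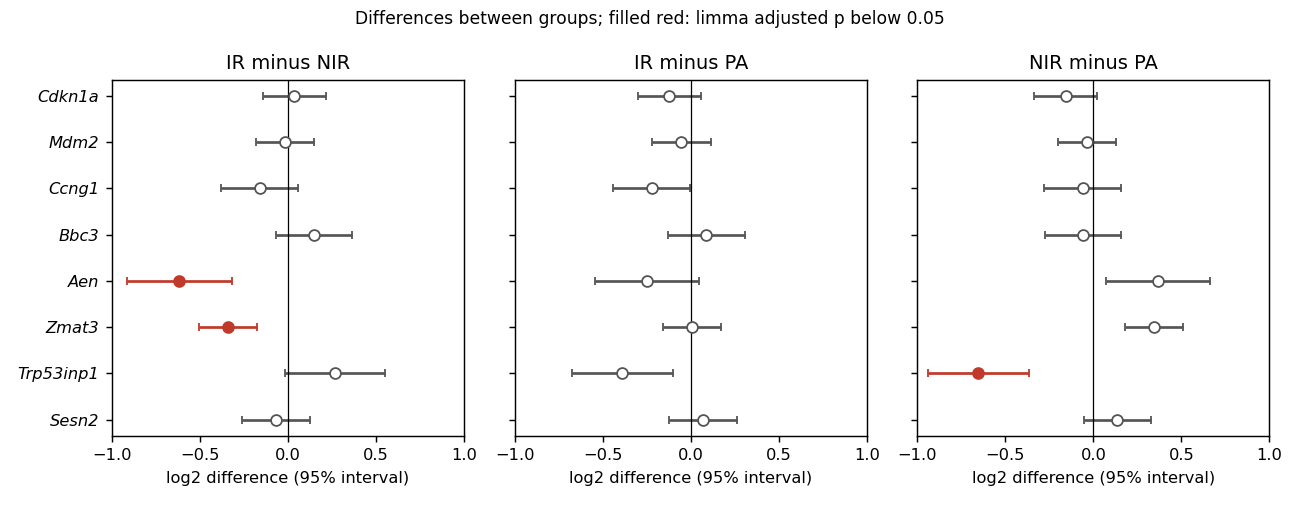
Log2 differences (horizontal axis) of the 8 measured p53 target genes in each comparison, with 95% intervals from limma as bars and filled red points where the adjusted p was below 0.05. Aen (-0.62) and Zmat3 (-0.34) are the filled points for IR minus NIR, Trp53inp1 (-0.65) for NIR minus PA, and there is none for IR minus PA.

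Trp53inp1, a stress-induced nuclear protein gene whose product promotes p53 activity and autophagy, had another pattern. It read 5.69, 5.37 and 6.04 in IR, 5.42, 5.49 and 5.39 in NIR and 6.07, 6.11 and 6.08 in PA (Entrez Gene 60599). All PA arrays lay above all arrays of tumour-derived cells, with IR3 closest to them and IR2 just below the NIR arrays. Trp53inp1 was 1.57-fold lower in NIR than in PA (log2 difference -0.65, SE 0.13, 95% interval -0.94 to -0.37, limma adjusted p = 0.0347). For IR minus PA the difference was -0.39 and did not pass (limma adjusted p = 0.340), except without IR3, when it was -0.56 (limma adjusted p = 0.0189), and with array weights, when it was -0.48 (limma adjusted p = 0.0293). IR minus NIR gave 0.27 (limma adjusted p = 0.354), with 0.096 without IR3 and 0.43 without IR2. Averaged over both of the gene's probe sets, NIR minus PA was -0.38 and did not pass (limma adjusted p = 0.0803). The gene's second probe set had a mean of 3.92, below the median over all probe sets, and gave -0.11 for NIR minus PA (limma adjusted p = 0.694 over all probe sets).

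Sesn2 encodes sestrin 2, a leucine sensor that restrains the growth kinase complex mTORC1. It read 6.89, 6.96 and 7.07 in IR, 6.96, 7.15 and 7.01 in NIR and 6.92, 6.77 and 7.03 in PA (Entrez Gene 230784), with overlap between all groups. Its differences were -0.068 for IR minus NIR, 0.069 for IR minus PA and 0.14 for NIR minus PA (limma adjusted p from 0.583 to 0.904). On the second Sesn2 probe set NIR2 stood at 7.26 against 6.54 to 6.74 on the other 8 arrays.

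Counted over the set, 2 of 8 members were lower and 0 higher in IR than in NIR, where 1.65% of all 18193 genes were called by limma in either direction and 0.863% were lower. In IR against PA 0 of 8 were called, against 1.06% of all genes, although 2 of 8 had an unadjusted p under 0.05 (Ccng1 and Trp53inp1), as did 8.59% of all genes. In NIR against PA 1 of 8 was lower, against 1.3% of all genes called in either direction and 0.918% lower. Groups did not overlap for 2 members between IR and NIR (18.1% of all genes), 2 for IR against PA (14.7%) and 3 for NIR against PA (15.5%). The median difference over the members was -0.042, -0.087 and -0.047 in the order IR minus NIR, IR minus PA and NIR minus PA, beside 0.0014, 0.0043 and 0.0046 over all genes. Both comparisons of a tumour-derived group with PA use the same PA arrays, and the genes were chosen with results of these data known.

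The 3 calls lay near the threshold. Aen and Zmat3 between IR and NIR each kept an adjusted p below 0.05 without NIR3 (0.0427 and 0.0324) and lost it without any of the other 8 arrays, PA arrays included, with limma adjusted p from 0.0695 to 0.144. Trp53inp1 between NIR and PA passed without IR2 or IR3 and was lost without any of the other 7 (limma adjusted p up to 0.140). The differences themselves kept their sign throughout these fits.

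**Figure D3:**
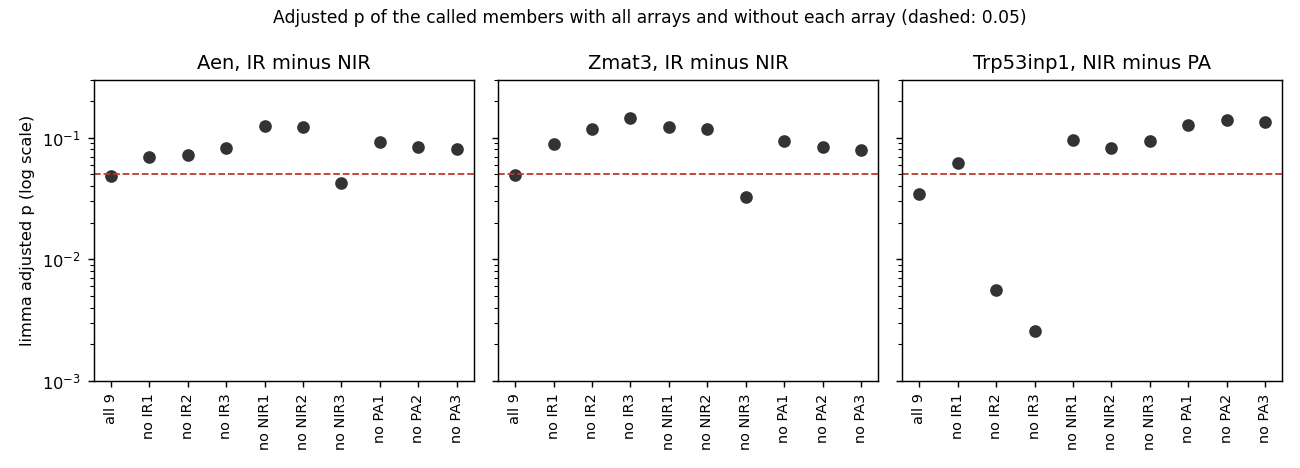
Limma adjusted p (vertical axis, log scale) of Aen and Zmat3 for IR minus NIR and of Trp53inp1 for NIR minus PA, with all 9 arrays and without each array in turn, and a dashed line at 0.05. Aen and Zmat3 lie below the line with all arrays and without NIR3, and Trp53inp1 with all arrays and without IR2 or IR3.

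The probe sets of a gene gave a further view of each difference. Of the 18 member probe sets, 13 were lower in IR than in NIR and 5 higher, 12 were lower in IR than in PA and 6 higher, and NIR against PA split into 9 and 9. Tested over all 45036 probe sets, 0 of 18 passed for IR minus NIR and for IR minus PA (background 0.693% and 0.622%) and 1 of 18 for NIR minus PA (background 0.77%), the brightest one of Trp53inp1 (limma adjusted p = 0.0469). The second Aen probe set gave -0.45 for IR minus NIR and -0.37 for IR minus PA, with IR3 again lowest at 7.03. Another, dim Aen probe set (mean 4.79) gave -0.21 for IR minus NIR with no overlap, and the remaining dim one (mean 4.86) gave -0.039. The probe sets of Aen thus all pointed down in IR against NIR but differed in size, and none passed in this fit (limma adjusted p = 0.0686 for the brightest).

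**Figure D4:**
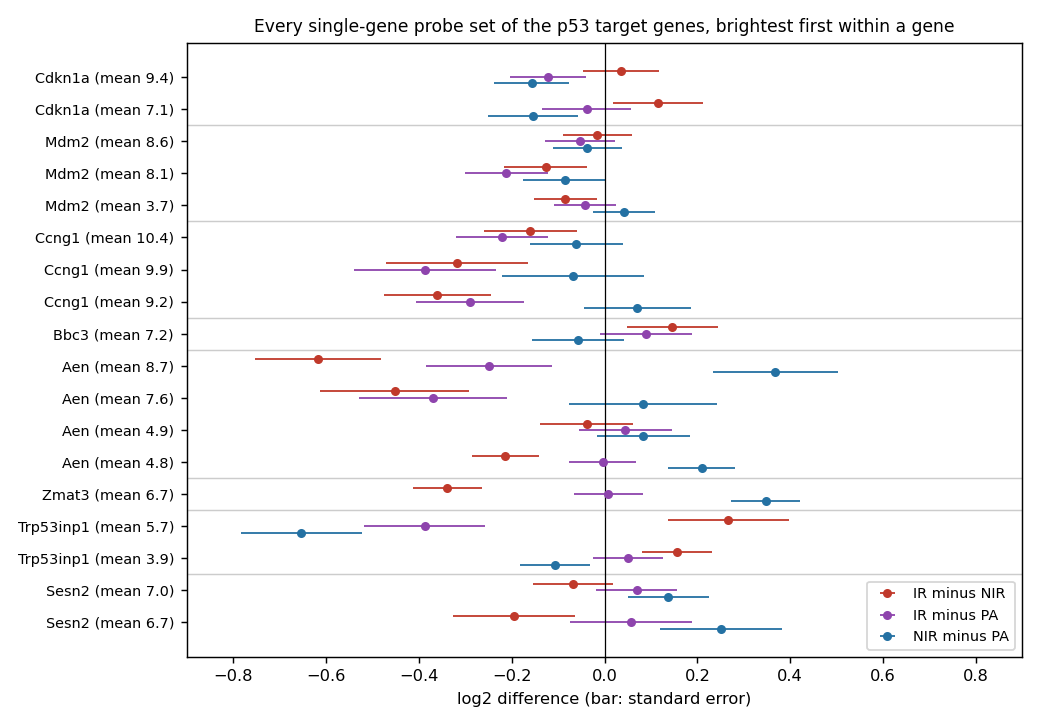
Log2 differences (horizontal axis) of every single-gene probe set of the members, labelled with gene and mean log2 value over the 9 arrays, for IR minus NIR, IR minus PA and NIR minus PA, with limma standard errors as bars. All 3 Ccng1 probe sets are negative for IR minus NIR and IR minus PA, and all 4 Aen probe sets are negative for IR minus NIR.

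Genes with the pattern most like each called member over the 9 arrays were sought among genes of mean at least 6. The likeness is a Pearson correlation over 9 arrays in 3 groups, taken as the highest over 8261 or 8262 genes, and is a description only. For Aen they were Abcf2 (r = 0.990), a ribosome-associated ATPase gene, Cct5 (0.989), a chaperonin subunit, and Eif3b (0.987), a translation initiation factor subunit. For Zmat3 they were Pigl (0.979), Eif2s2 (0.973) and Gmps (0.973), an enzyme of guanine nucleotide synthesis. For Trp53inp1 they were Lrrc75a (0.967), Tmem158 (0.958) and C1s1 (0.947).

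In the wider p53 pathway few genes passed. Of 17 other p53-activated genes of arrest and repair, 0 passed limma in any comparison, with 3, 2 and 0 at an unadjusted p under 0.05 for IR minus NIR, IR minus PA and NIR minus PA, and medians of 0.065, 0.029 and -0.015. Over all genes 15.9%, 8.59% and 12.1% had an unadjusted p under 0.05 in these comparisons, the background for this and the following lists. The members of highest level in that list were Plk2, a polo-like kinase gene (0.22 for IR minus NIR, limma adjusted p = 0.344), and Gtse1, a regulator of p53 in G2 (-0.31, limma adjusted p = 0.0772). The largest difference there, singled out after its values were seen, was that of Gadd45a, a DNA damage-inducible growth arrest gene, at 0.57 for IR minus NIR (limma adjusted p = 0.0984).

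Of 25 measured p53-activated genes of cell death and membrane signalling, 1 was lower in IR than in NIR and 24 did not pass, with a median of -0.009, where 0.863% of all genes were lower. None passed against PA by limma, where 7 (IR) and 4 (NIR) had an unadjusted p under 0.05. The gene that fell was Hspa4l, a chaperone of the HSP110 family, which read 10.02, 10.01 and 10.07 in IR, 10.66, 10.74 and 10.49 in NIR and 10.35, 10.30 and 10.31 in PA. Its groups did not overlap in any pairing, with NIR highest and IR lowest (log2 difference for IR minus NIR -0.60, limma adjusted p = 0.00498), and it passed without each array in turn. Hspa4l also belongs to the heat shock genes. The death receptor gene Tnfrsf10b, named after its values were seen, gave -0.54 for IR minus PA from a level near the median probe set (limma adjusted p = 0.105).

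Among 22 measured regulators of p53, including the kinases Atm, Atr, Chek1 and Chek2 and the MDM2 partner Mdm4, 0 passed limma in any comparison, and 4, 0 and 3 had an unadjusted p under 0.05. Rpl11, the ribosomal protein that binds MDM2, differed by -0.053 between IR and NIR, Cop1, another ubiquitin ligase for p53, by -0.078, and Mdm4 by -0.031 (limma adjusted p from 0.726 to 0.937). The largest difference in that list, singled out after its values were seen, was that of Huwe1. It gave -0.47 for IR minus NIR (limma adjusted p = 0.0820) and 0.47 for NIR minus PA (limma adjusted p = 0.107), with no overlap in either. The p53 relatives Trp63 and Trp73 had group means of 4.23 to 4.29 and 4.68 to 4.73, close to the median probe set of 4.49, and neither passed.

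The BCL2 family, in which PUMA acts, held 2 rises in IR against NIR among 14 measured members, where 0.786% of all genes were higher. Bcl2l11, which encodes the BH3-only death activator BIM, read 7.29, 7.34 and 7.58 in IR, 6.81, 6.88 and 6.89 in NIR and 7.13, 7.11 and 7.08 in PA (0.54 for IR minus NIR, limma adjusted p = 0.0121). Bcl2, the survival factor that BIM binds, read 6.65, 6.72 and 6.74 in IR, 6.21, 6.04 and 6.46 in NIR and 6.56, 6.49 and 6.38 in PA (0.47, limma adjusted p = 0.0426). Bcl2l11 passed without each array in turn, whereas Bcl2 passed without NIR3 and was lost without any of the other 8 arrays (limma adjusted p up to 0.121). Both genes had their highest group mean in IR and their lowest in NIR, and their IR arrays lay above all NIR and PA arrays. The list median was 0.055, and 0 members passed in the comparisons with PA by limma, with 5 (IR) and 2 (NIR) at an unadjusted p under 0.05.

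Cell cycle genes that p21 represses through the DREAM complex gave 1 rise, 0 falls and 28 uncalled genes in IR against NIR, with a median of -0.023. Of all genes 0.786% were higher and 0.863% lower in this comparison. The gene that rose was Bub1, a kinase of the spindle checkpoint. Bub1 read 9.49, 9.48 and 9.58 in IR, 9.13, 9.08 and 9.14 in NIR and 9.42, 9.40 and 9.33 in PA (0.40, limma adjusted p = 0.018). Its call was lost without any one of the IR arrays (limma adjusted p up to 0.0591). None passed against PA by limma (2 and 3 at an unadjusted p under 0.05). The list mean lay between 9.73 and 9.80 on all 9 arrays. Among 18 inhibitors of cyclin-dependent kinases and cyclins of G1, 1 passed in any comparison, Ccng2, the gene of cyclin G2. Ccng2 rose in IR against NIR, where 0.786% of all genes were higher. It read 7.34, 7.35 and 8.76 in IR, 6.43, 6.29 and 6.63 in NIR and 7.27, 7.28 and 7.67 in PA, so that NIR lay below all other arrays and IR3 above them. IR minus NIR was 1.37 (limma adjusted p = 0.0477) and, without IR3, 0.90 (limma adjusted p = 0.0156). The call was lost without any of the other 8 arrays (limma adjusted p up to 0.125). With the compared groups alone, the calls of Hspa4l, Bcl2l11, Bcl2, Bub1 and Ccng2 were all lost (limma adjusted p from 0.0563 to 0.171). With a gene's probe sets averaged, Bcl2l11 gave 0.23, Bcl2 0.20 and Bub1 0.22, and these calls and that of Ccng2 were lost (limma adjusted p from 0.0551 to 0.138), while Hspa4l gave -0.75 and passed.

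**Figure D5:**
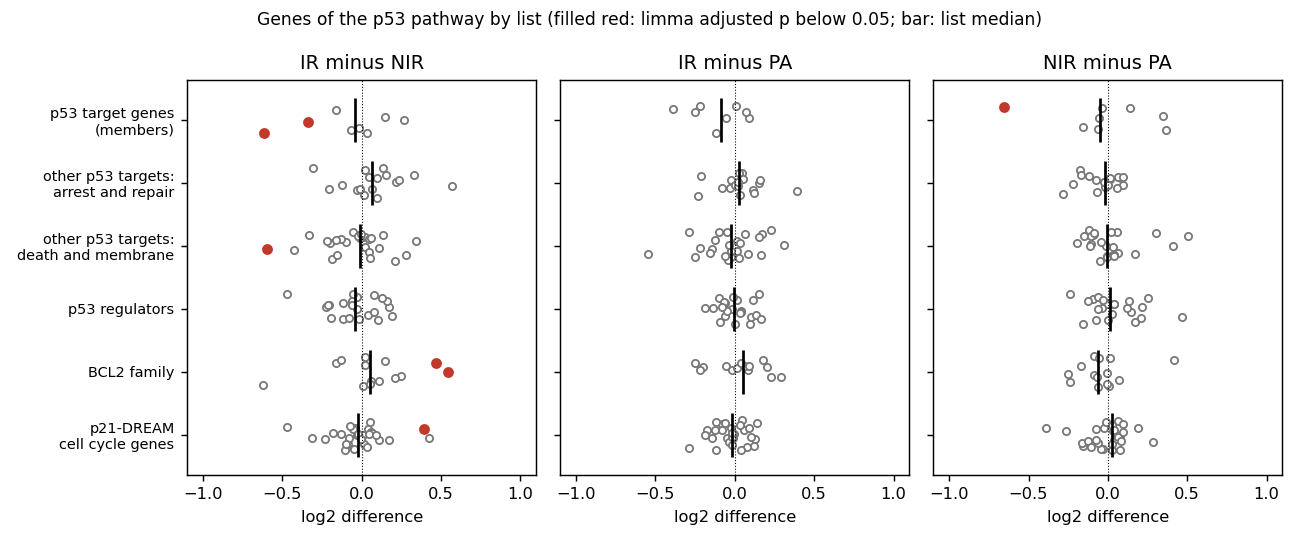
Log2 differences (horizontal axis) of the measured genes of each p53 pathway list in each comparison, with a bar at the list median and filled red points at a limma adjusted p below 0.05. List medians lie between -0.087 and 0.065, and the filled points outside the members are Hspa4l, Bcl2, Bcl2l11 and Bub1, all for IR minus NIR. A gene that belongs to several of the drawn lists appears in each.

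Array medians ran from 4.45 to 4.52, and IR3 stood apart from IR1 and IR2 (SD of log2 differences 0.203 and 0.209, against 0.129 between IR1 and IR2). NIR2 differed from NIR1 and NIR3 with SDs of 0.230 and 0.213, and NIR1 from NIR3 with 0.179. IR3 held the lowest Aen and the highest Trp53inp1 value of its group, and the highest mean of 15 macrophage markers, 5.40 against 4.86 and 4.89 in the other IR arrays, 4.77 to 4.89 in NIR and 4.45 to 4.58 in PA. Of these markers 0 passed for IR minus NIR by limma (3 at an unadjusted p under 0.05), 1 for IR minus PA and 2 for NIR minus PA. Over all genes 1.65%, 1.06% and 1.3% were called in these comparisons, the background for this and the following marker lists. Lyz1, a lysozyme gene, was higher than in PA in IR (3.55, limma adjusted p = 0.0023) and in NIR (2.30, limma adjusted p = 0.0362), and Mrc1, a mannose receptor gene, in NIR (0.75, limma adjusted p = 0.0156). IR3 read 8.30 for Lyz1 and 8.25 for Lyz2, against at most 6.32 for either gene on the other arrays. Of the 15 markers 7 had group means above the median probe set in all groups and 5 below it, among them the defining markers Adgre1, Itgam and Ptprc, at 3.40 to 4.05 on all arrays. Of the 7, Fcgr1 (group means 4.53 to 4.62) and, in PA, Cd68 (4.52) lay close to that median. Fibroblast markers averaged 6.96 to 7.32 in IR and NIR together and 6.76 to 6.92 in PA, with 1 of 10 higher in IR and 2 higher in NIR than in PA. These were Dcn, a matrix proteoglycan gene (1.24 for IR and 0.81 for NIR minus PA, limma adjusted p = 0.00265 and 0.0391), and Lum, its relative (1.29 for NIR minus PA, limma adjusted p = 0.0241). The part of these markers in the results was not tested. In bulk RNA fewer cells with a transcript and less of it per cell cannot be told apart. As to the labelled cell type, the simple epithelial keratin genes Krt8 and Krt18 were bright (group means 11.4 to 12.8). Of 12 epithelial and squamous markers, 7 had group means above the median probe set in all groups (Krt8, Krt18, Krt5, Krt19, Epcam, Jup and Sfn) and 5 below it (Krt14, Trp63, Cdh1, Dsp and Cldn4). Krt5 and Krt19, with group means of 4.88 to 4.96, lay little above that median of 4.49 and carry little signal. Krt18 was the 1 marker of that list called, higher in IR than in NIR (0.57, limma adjusted p = 0.018) and than in PA (0.55, limma adjusted p = 0.0146). Of 10 fibroblast markers 7 lay above the median in all groups, with Col3a1, Col1a2 and Pdgfra at 9.00 to 11.75 on all arrays, PA included, and 3 below it (Thy1, Postn and Fap).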

How the data were processed

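Total RNA was purified with a Qiagen kit, labelled with biotin and hybridised by the standard Affymetrix procedure, per the labels' protocols. The authors deposited log2 expression values per probe set made with RMA, per the submitters' processing notes, with version and settings not given in the sources used here. The values ran from 2.47 to 14.0 and were used as deposited. Of 45100 probe sets 64 were controls, 34944 had 1 gene, 932 several and 9160 none in the platform annotation, whose names were updated by Entrez identifier (34740 matched to RefSeq).

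Each of 18193 genes was represented by its brightest probe set (highest mean over the arrays) and tested with limma 3.58.1 in R 4.3.3, in a fit over all 9 arrays with a mean per group, 2-sided (residual degrees of freedom 6, prior 5.48), with Benjamini-Hochberg adjustment over all genes at 0.05. A second fit covered all 45036 probe sets that are no control. Intervals are limma's at 95%, unadjusted. On simulated data for IR minus NIR with 18193 genes, 71 of 100 true log2 differences of 0.5 and 97 of 100 of 1 were recovered, with 6 false among 174 calls. The simulated noise was independent for each gene and array, without the array-wide differences or exact repeats of the deposited values. No difference smaller than 0.5 was simulated, so these rates need not hold for these arrays. The number of arrays limits the precision.

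Members and lists were chosen with earlier results of these data known. Named were all members, up to 4 called genes a list or else up to 2 of highest level, and the 3 nearest patterns of called members. Mdm4, Huwe1, Gadd45a, Tnfrsf10b and the single cell type markers were named after their values were seen. Same-numbered arrays did not deviate together from their group means (correlations from -0.20 to 0.097), so the numbers were not taken as pairs. Promoter sequences came from RefSeq (GRCm38.p6). Alternatives were a minimum mean of 5, averaging a gene's probe sets, median centring, a second quantile normalization, and trend and robust eBayes. Further ones were array weights, the compared groups alone, the replicate block and leaving out each array. Another dropped all probe sets with the suffix _s_at, _x_at or _a_at, which include the brightest ones of Mdm2 and Ccng1. Figures were drawn with matplotlib 3.10.9.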

Additional observations from a re-analysis of the deposited data

How the results depend on the processing

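The count of members called for IR minus NIR was 2 in the reported fit. It was 1 with a gene's probe sets averaged, with _s_at, _x_at and _a_at probe sets dropped and with median centring. With trend and robust eBayes and with the replicate block it was also 1. It was 0 with a second quantile normalization, with array weights and with the compared groups alone, and 0 to 2 without each array. For IR minus PA it was 0, but 1 (Trp53inp1) with array weights and 0 to 1 without each array (1, Trp53inp1, without IR3). For NIR minus PA it was 1, but 2 with the filter on a mean of at least 5 and with array weights, 0 with the replicate block, and 0 to 2 without each array. With a gene's probe sets averaged and without NIR3 the count stayed at 1 but the gene was Zmat3 (limma adjusted p = 0.0339 and 0.0263), and Trp53inp1 was lost (0.0803 and 0.0937). Zmat3 has 1 single-gene probe set, so averaging could not change its difference, only its adjusted p. The replicate block, a number the arrays share without pairing, left 1 of the 2 calls for IR minus NIR (Aen) and ended that of Trp53inp1 (limma adjusted p = 0.0542). The cause was not tested. Over the 18 alternatives, the limma adjusted p ran from 0.0216 to 0.171 for Aen and from 0.0324 to 0.163 for Zmat3 (IR minus NIR), and from 0.00226 to 0.14 for Trp53inp1 (NIR minus PA), with no change of sign. Among all genes the calls for IR minus NIR numbered 300, but 11 with the compared groups alone and 77 to 271 without each array. They numbered 192 for IR minus PA, but 468 with array weights and 99 to 214 without each array, and 236 for NIR minus PA, but 382 and 121 to 370. The same alternatives for Hspa4l, Bcl2, Bcl2l11, Bub1 and Ccng2 were added after the data were seen.

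Signs turned only in differences that did not pass. For IR minus NIR, Mdm2 gave 0.0026 with a second quantile normalization and -0.070 to 0.023 without each array. For NIR minus PA it gave 0.042 on its dim probe set and -0.076 to 0.010 without each array. The value of 0.042 is also that with _s_at, _x_at and _a_at probe sets dropped, since the brighter Mdm2 probe sets are _a_at. Cdkn1a ran from -0.036 to 0.083 without each array for IR minus NIR. Zmat3 gave -0.0011 for IR minus PA with median centring and -0.024 to 0.039 without each array. For NIR minus PA, Bbc3 ran from -0.12 to 0.0094 and Ccng1 from -0.16 to 0.053 without each array, and another Ccng1 probe set gave 0.070. Dim probe sets gave 0.045 for Aen and 0.050 for Trp53inp1 for IR minus PA.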

Other observations

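The deposited values held many exact repeats between arrays. The brightest Mdm2 probe set read 8.6442 on NIR1, PA1 and PA2, the brightest Cdkn1a probe set 9.4139 on IR1 and IR2, the brightest Aen probe set 8.6843 on PA1 and PA2, and the dim Mdm2 probe set 3.6664 on 4 arrays of all 3 groups. Of the 18 member probe sets 8 (44.4%) held a value identical to 6 decimals on at least 2 arrays, as did 27333 of all 45036 probe sets (60.7%). Repeats of this kind occurred both within and between groups. Their effect on the tests was not tested.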
